A study of Mus musculus with 16 samples.

Results

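The dual-specificity phosphatases Dusp4, Dusp5 and Dusp6, the Sprouty genes Spry1, Spry2 and Spry4 and the Sprouty-related genes Spred1, Spred2 and Spred3 are a set of feedback inhibitors of the ERK pathway. These 9 genes, of 27179 in the table, were chosen by name as known inhibitors of ERK signalling, with earlier results of these data known. All 9 were measured, and all 9 passed the filter on low values in every comparison. They were followed through 4 lines of mouse tumour organoids (MTOs), which are 3-dimensional epithelial cultures grown in a basement membrane extract, in 2 media per line.

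EGF and other growth factors bind receptor tyrosine kinases, which act through RAS, RAF and MEK to phosphorylate and so activate ERK. Active ERK induces transcription of several of its own inhibitors, so their mRNA is often read as a sign of pathway output in epithelial and tumour cells. The phosphatases remove the activating phosphates from ERK itself, while Sprouty and Spred proteins act higher up, between the receptor and RAF.

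The study asked how organoids with 3 tumour mutations respond to poorer growth conditions. MTO100 and MTO101 (APT) were grown without EGF or in full medium. MTO54 and MTO220 (AKP, Tgfbr2 wild type in the labels) were grown with TGF-beta1 and without galunisertib, or in full medium. By the field's usual reading, which the labels do not spell out, both genotypes share lesions in Apc and Trp53, and APT has a lesion in Tgfbr2. In full medium there was galunisertib (1 µM), which blocks the kinase of the TGF-beta type I receptor, beside noggin (100 ng/ml), which blocks BMPs, and EGF (50 ng/ml). For every line and medium (8 groups) there were 2 libraries, from consecutive passages that went into separate pools (pool 1 and pool 2). Passages were 14 and 15 for MTO54, 10 and 11 for MTO220 and MTO100, and 8 and 9 for MTO101. Organoids were collected on day 7 in changed media and on day 4 in full medium, so the change of medium and the 3 extra days cannot be told apart. Each genotype is represented by 2 lines, whose Cre or promoter and age of source animals are not given in the sources used here. The 2 libraries of a group are passages of 1 line, so the p-values measure the spread between passages and lines and not between animals. For comparisons between the lines of a genotype, and between their responses, they measure the spread between passages only.

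The 16 libraries held 17056053 to 22251986 reads on genes, and values are given as normalised reads, the authors' counts divided by a size factor for each library. The mitochondrial share of reads was 2.62% to 4.05% without EGF against 1.74% to 2.09% in full medium in APT, and 1.91% to 2.41% with TGF-beta against 1.39% to 1.68% in full medium in AKP. RNA concentrations were 13.2 to 354 ng/µl without EGF against 168 to 1586 ng/µl in full medium in APT, and 87.8 to 1536 ng/µl with TGF-beta against 423 to 2344 ng/µl in full medium in AKP. The epithelial markers (Epcam, Cdh1, Krt8, Krt18, Krt19, Vil1 and Cdx2) summed to between 95294 and 227745 normalised reads per library, and the immune markers to between 31.8 and 105.2. The targeted genes did not follow the genotypes in every line. Trp53 stood at 1916 to 4207 in MTO220, apart from the 91.2 to 252 of the other 3 lines, where the usual reading gives all 4 a lesion in it. Tgfbr2 stood at 2573 to 3353 in MTO100, inside the 2349 to 5315 of the AKP lines, and at 877.2 to 1616 in MTO101.

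RefSeq promoter entries (GRCm38.p6, the build of mm10) were used for 7 of the 9 genes. The promoters of Dusp4 and Spry4 were not searched, so whether they hold any of the motifs was not tested. The 250 bases before the start were searched on both strands for 5 motifs: an ETS factor site in the spelling CCGGAA, the AP-1 site in the spelling TGANTCA, the SMAD element with the letters CAGACA, a second ETS spelling (the letters GGAAGT, which can overlap the first and is then counted under both), and the CArG box of serum response factor. The second ETS spelling and the CArG box were added after the first 3 had given no match and the letters had been seen. Dusp5 held 2 CArG boxes side by side without overlap, 82 and 72 bases before its start, and a match to the second ETS spelling on the minus strand 193 bases before it. Spred2 held a match to the same spelling on the minus strand 33 bases before its start. Dusp6, Spry1, Spry2, Spred1 and Spred3 held no match to any of the 5. The Spred3 window (29168648 to 29168897 on chromosome 7) precedes the start in the RefSeq table, which lies inside the gene interval given with its values. Of 32851 mouse promoters of the same length, 12% held the first ETS spelling, 19.7% the second, 1.47% a CArG box, 6.75% the AP-1 site and 17.1% the SMAD element. The windows of Dusp5 and Spred2 are shown because they held matches and both genes fell without EGF, and that of Dusp6 because it is the member with the highest level per kb. Capitals mark the matches. The windows are chr19:53528895-53529144 for Dusp5, chr11:19924192-19924441 for Spred2 and chr10:99262981-99263230 for Dusp6, all on the plus strand.
Dusp5: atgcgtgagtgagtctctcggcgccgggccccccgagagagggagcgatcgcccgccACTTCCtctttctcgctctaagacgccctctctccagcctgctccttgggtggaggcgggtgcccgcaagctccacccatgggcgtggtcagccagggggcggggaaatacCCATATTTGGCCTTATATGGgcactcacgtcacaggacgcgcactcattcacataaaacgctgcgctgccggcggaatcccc
Spred2: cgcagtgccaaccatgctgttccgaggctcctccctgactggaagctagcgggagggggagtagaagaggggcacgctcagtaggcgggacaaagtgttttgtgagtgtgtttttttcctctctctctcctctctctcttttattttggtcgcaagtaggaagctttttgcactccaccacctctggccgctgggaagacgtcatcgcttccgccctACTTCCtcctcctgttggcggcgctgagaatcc
Dusp6: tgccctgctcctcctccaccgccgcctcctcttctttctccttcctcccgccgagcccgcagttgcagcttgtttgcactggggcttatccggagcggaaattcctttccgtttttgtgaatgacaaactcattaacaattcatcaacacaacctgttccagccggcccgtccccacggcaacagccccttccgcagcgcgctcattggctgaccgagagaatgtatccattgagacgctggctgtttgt

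The 9 genes differed widely in level. Per kb of exon, averaged over the 16 libraries, Dusp6 was highest at 702.2 normalised reads per kb and Dusp4 next at 569.4. The Sprouty genes lay between 174.3 (Spry1) and 220.4 (Spry2), with Spry4 at 185.2. Spred2 stood at 152.3, Spred1 at 131.7, Dusp5 at 68.9 and Spred3 lowest at 36.6. The ratio of the highest to the lowest library ran from 2.66 for Spry2 and 3.77 for Spry1 to 26.7 for Spred3 and 87.8 for Spry4. Spry1 and Spry2 thus had the narrowest ranges.

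**Figure D1:**
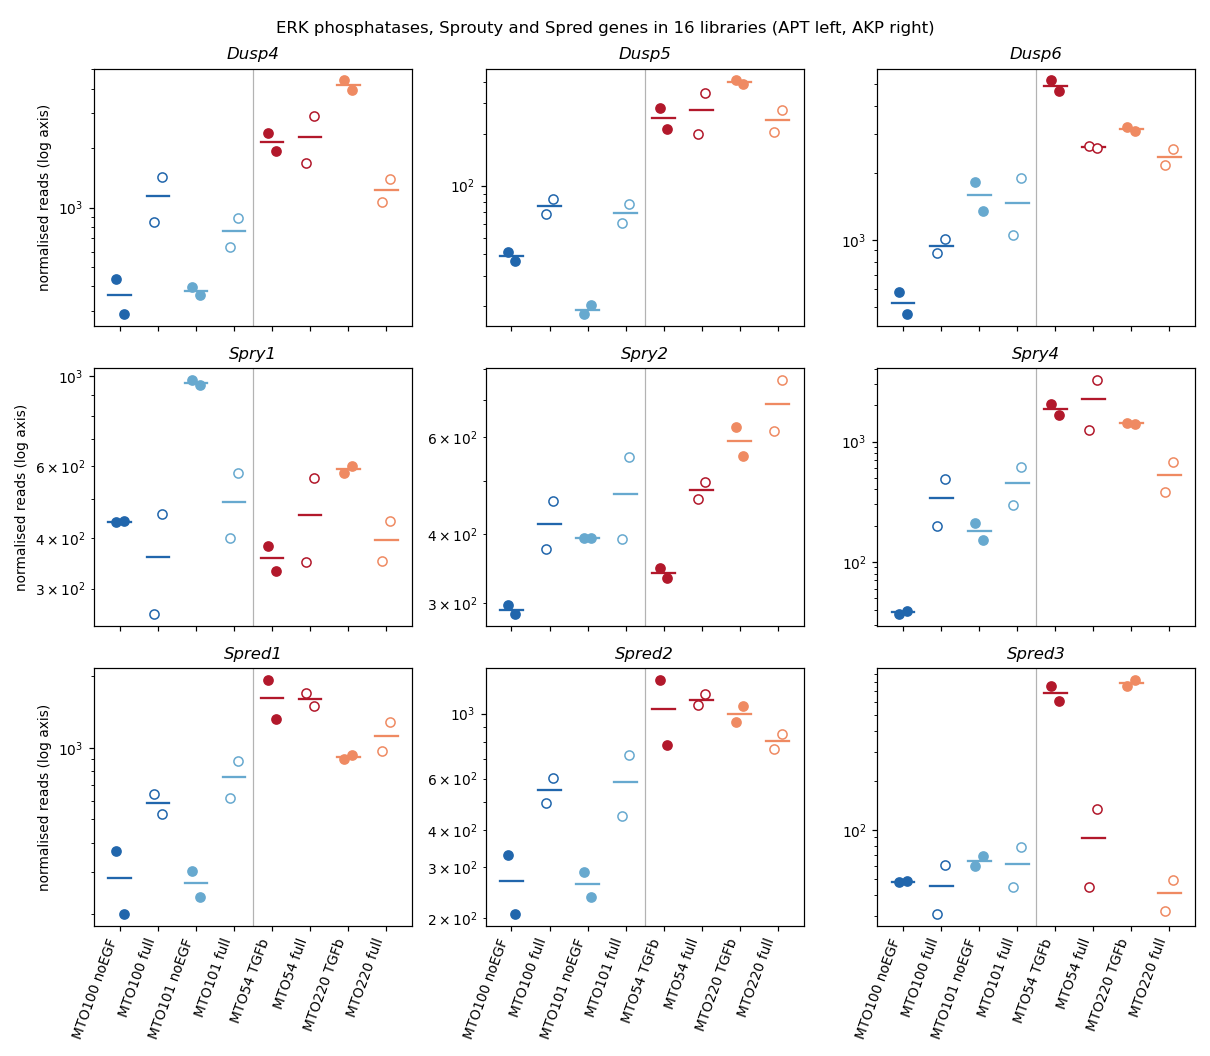
Normalised reads (log axis, scaled per gene) of the 9 genes in each of the 16 libraries by line and medium; filled points are changed media, open points full medium, and bars the mean of the 2 pools. Dusp5 runs from 18.0 to 408 and is lowest in MTO101 without EGF, and Spred3 is at 612.6 or more with TGF-beta and at 134 or less elsewhere.

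Without EGF, 5 of the 9 inhibitors fell in APT organoids, 1 rose and 3 did not pass the test. Those that fell were Dusp4, Dusp5, Spry4, Spred1 and Spred2, from all 3 families, and their log2 changes ran from -2.12 to -1.09. Spry1 was the member that rose. The median log2 change of the 9 was -1.09, against 0.08 over the 14373 genes tested. The medium changed much of the transcriptome: 48.5% of those genes were called by limma, 21.7% lower and 26.8% higher.

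Dusp4, a nuclear phosphatase induced by ERK, had 434.4 and 289.3 normalised reads in MTO100 and 395.7 and 362.5 in MTO101 without EGF, against 849.2 and 1435 in MTO100 and 629.1 and 888.4 in MTO101 in full medium. Every library without EGF lay below every library in full medium. The log2 change was -1.31 ± 0.24 (limma SE, adjusted p = 0.00112). In bulk samples, fewer cells of a type and less RNA per cell cannot be told apart.

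Dusp5, the nuclear phosphatase most specific for ERK, whose promoter held the CArG boxes, had 41.5 and 36.5 normalised reads in MTO100 and 18.0 and 20.3 in MTO101 without EGF. In full medium it had 68.9 and 83.5 in MTO100 and 61.1 and 78.3 in MTO101. The groups did not overlap, and the lowest values were those of MTO101 without EGF. Its log2 change was -1.37 ± 0.28 (limma, adjusted p = 0.00227). It was -1.80 in MTO101 alone (limma, adjusted p = 0.00797) and did not pass in MTO100 alone (-0.94, adjusted p = 0.0611).

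Dusp6, the cytoplasmic ERK phosphatase, did not pass the test over both lines. It had 581.7 and 464.8 normalised reads in MTO100 and 1823 and 1348 in MTO101 without EGF, against 871.4 and 1012 in MTO100 and 1050 and 1889 in MTO101 in full medium. All MTO100 values without EGF lay below those of its full medium, while the MTO101 values overlapped. Over both lines the log2 change was -0.35 ± 0.25 (limma, adjusted p = 0.272). Without the full-medium MTO101 library of pool 1 it was -0.62 (adjusted p = 0.0222), and in MTO100 alone -0.85 (adjusted p = 0.0106), so 1 library decides whether Dusp6 is called.

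Spry4, an inhibitor of RAS activation downstream of growth factor receptors, had the largest decrease of the 9. It had 36.8 and 39.1 normalised reads in MTO100 and 211.6 and 152.2 in MTO101 without EGF, against 197.2 and 485.7 in MTO100 and 296.1 and 611.5 in MTO101 in full medium. All 4 pairs of line and pool were lower without EGF, although MTO101 without EGF in pool 1 (211.6) lay above MTO100 in full medium in pool 1 (197.2). The log2 change was -2.12 ± 0.41 (limma, adjusted p = 0.00156).

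Spry1, which restrains RAS activation in the same way, moved the other way. It had 438.1 and 439.6 normalised reads in MTO100 and 978.8 and 952.9 in MTO101 without EGF. In full medium it had 259.7 and 459.2 in MTO100 and 399.8 and 579.6 in MTO101. The 2 libraries of MTO101 without EGF were the highest of all 16 for this gene, and those of MTO100 lay within the full-medium range. The log2 change was 0.67 ± 0.23 (limma, adjusted p = 0.0294) and was higher in 3 of 4 pairs. The call was lost with edgeR (0.59, adjusted p = 0.0547) and with the pools averaged (0.67, limma adjusted p = 0.0847). It was lost on leaving out MTO101 without EGF in pool 1 (0.60, adjusted p = 0.0918) or pool 2 (0.62, adjusted p = 0.0891). Leaving out the pool 1 full-medium library of MTO100 (0.58, adjusted p = 0.092) or of MTO101 (0.50, adjusted p = 0.075) also lost it. Spry1 was called in MTO101 alone (1.00, limma adjusted p = 0.0203) but not in MTO100 alone (0.34, adjusted p = 0.366).

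Spry2 had 297.4 and 286.7 normalised reads in MTO100 and 393.6 and 394.8 in MTO101 without EGF, against 376.4 and 460.1 in MTO100 and 391.7 and 553.8 in MTO101 in full medium. Its log2 change of -0.37 ± 0.18 did not pass the test with limma (adjusted p = 0.102), but did with DESeq2 (-0.44, adjusted p = 0.0452) and without the pool 1 full-medium library of MTO101 (-0.50, limma adjusted p = 0.0299).

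Spred1 and Spred2, which bring the RAS GTPase activator neurofibromin to RAS at the membrane, fell together. Spred1 had 369.2 and 200.7 normalised reads in MTO100 and 303.7 and 236.1 in MTO101 without EGF, against 641.4 and 528.4 in MTO100 and 617.5 and 883.2 in MTO101 in full medium. Spred2 had 329.6 and 206.8 in MTO100 and 287.8 and 237.1 in MTO101 without EGF, against 494.0 and 603.4 in MTO100 and 445.9 and 722.4 in MTO101 in full medium. For both genes every library without EGF was below every library in full medium. Their log2 changes were -1.28 ± 0.23 for Spred1 (limma, adjusted p = 0.00107) and -1.09 ± 0.22 for Spred2 (adjusted p = 0.00195).

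Spred3 had 48.2 and 48.7 normalised reads in MTO100 and 60.3 and 69.2 in MTO101 without EGF, inside its range in full medium of 30.7 to 79.1, and its log2 change was 0.14 ± 0.30 (limma, adjusted p = 0.727). In all, 4 members did not overlap between the media, Dusp4, Dusp5, Spred1 and Spred2, each lower without EGF, where 16.9% of all genes tested had no overlap in that direction.

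Within each pool, fitted alone with 4 libraries, the 5 decreases kept their direction and were larger in pool 2. The pool 2 libraries without EGF came with 14.6 (MTO100) and 13.2 ng/µl of RNA (MTO101), against 48.2 and 354 ng/µl in pool 1, and that of MTO101 had the highest mitochondrial share (4.05%). The full-medium libraries had 168 (MTO100) and 307 ng/µl (MTO101) in pool 1, against 1586 and 1065 ng/µl in pool 2. In full medium Spry4 stood at 197.2 (MTO100) and 296.1 (MTO101) in pool 1, against 485.7 and 611.5 in pool 2. All 5 genes were higher there in pool 2 in both lines, except Spred1 in MTO100 (641.4 in pool 1, 528.4 in pool 2). The part of these in the difference between pools was not tested. Without both pool 2 libraries lacking EGF, the 5 decreases were still called (limma, adjusted p = 0.0147 to 0.04). The change of Spry1 was not (0.68, adjusted p = 0.121). In pool 1 and pool 2 the log2 changes were -0.82 and -1.80 for Dusp4, -0.91 and -1.65 for Spred1, and -1.44 and -2.80 for Spry4 (limma, adjusted p = 0.0706 in pool 1). Those of Spred2 were -0.61 (adjusted p = 0.104) and -1.57, and those of Dusp5 -1.21 (adjusted p = 0.0993) and -1.53 (adjusted p = 0.0522). The increase of Spry1 was 1.02 in pool 1 (adjusted p = 0.029) and 0.33 in pool 2 (adjusted p = 0.415).

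The other genes of the pathway did not all move with the inhibitors. Their counts stand beside 26.8% of all genes called higher and 21.7% called lower without EGF. Among 6 other MAP kinase phosphatases tested, 3 rose, led by Dusp16 (log2 change 1.60 ± 0.18, adjusted p = 5.65e-05) and Dusp10 (1.79 ± 0.21, adjusted p = 7.72e-05), which act mainly on the stress kinases JNK and p38. Dusp9, which acts on ERK, fell (-1.88 ± 0.28, adjusted p = 0.000369). Of 12 other receptor and RAS inhibitors 2 rose and none fell, with Rasa1, a RAS GTPase activator, at 0.70 ± 0.16 (adjusted p = 0.00399). Of 20 core genes of the cascade 6 rose and 3 fell, shares near those of all genes. The adaptor Gab1 (1.04 ± 0.16, adjusted p = 0.000372) and the kinase Braf (1.10 ± 0.20, adjusted p = 0.00132) rose, and Hras (-0.90 ± 0.21, adjusted p = 0.00426) fell. Of 16 genes known as outputs of ERK 8 fell and 1 rose. These included the ETS factor Etv4 (-3.93 ± 0.33, adjusted p = 1.61e-05), the cyclin Ccnd1 (-1.23 ± 0.16, adjusted p = 0.000147), Myc (-0.94 ± 0.15, adjusted p = 0.000548) and the exception Epha4, an ephrin receptor that rose (0.89 ± 0.23, adjusted p = 0.00842), all by limma. In pool 2 alone, Rasa1, Hras and Epha4 kept their direction but were not called (limma, adjusted p = 0.0962 to 0.136), while the other genes named here kept their calls. Rasa1, Hras and Epha4 were also not called in MTO101 alone (limma, adjusted p = 0.0661 to 0.0715).

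Other cell states moved with EGF withdrawal. The 10 genes of S phase and mitosis all fell, and summed to 11495 to 23636 normalised reads without EGF against 54406 to 64580 in full medium. The 7 enteroendocrine markers summed to 1322 to 2133 without EGF against 104.8 to 246 in full medium. The 6 Paneth markers summed to 9770 to 15176 without EGF against 2688 to 3621 in full medium, and 5 of 5 tested rose. The 6 goblet markers summed to 6003 to 13151 without EGF against 328.4 to 5409 in full medium, where 2 rose and Agr2 fell. The endothelial markers summed to 1147 to 1906 without EGF against 404.4 to 821.6 in full medium, without overlap, and 2 of 3 tested rose. The tuft markers summed to 1857 to 7008 without EGF against 1395 to 2137 in full medium, and 3 of 4 tested rose. The fibroblast markers summed to 96.3 to 515.6 without EGF against 13.8 to 157.4 in full medium, and 2 of 2 tested rose. Lum was at 0 in all 4 libraries of both media and Kdr in full medium. Of the 7 epithelial markers, Cdx2 fell and 6 were not called. The part of these cell states in the changes of the inhibitors was not tested.

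In TGF-beta medium, 2 of the 9 inhibitors rose in AKP organoids, Spred3 and Dusp6, none fell and 7 did not pass the test. The median log2 change of the 9 was 0.32, against 0.02 over the 13725 genes tested, of which 52.6% were called, 27% higher and 25.7% lower.

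Spred3, the third Spred inhibitor, had 752.3 and 612.6 normalised reads in MTO54 and 750.3 and 820.9 in MTO220 with TGF-beta, against 44.8 and 134 in MTO54 and 32.2 and 49.7 in MTO220 in full medium. The groups lay far apart, and all TGF-beta values were above those of the other 12 libraries. The log2 change was 3.69 ± 0.36 (12.9-fold, limma, adjusted p = 2.71e-05) and was called under every alternative, from 3.10 to 4.27. Spred3 (chr7:29157783-29170070, minus strand) overlaps Ggn, a germ cell gene on the opposite strand, and the library kit does not mark strand, so reads in the overlap cannot be assigned. Ggn was counted at 46.3 to 50.4 with TGF-beta against 8.05 to 19.8 in full medium, also without overlap (log2 change 1.80 ± 0.32, adjusted p = 0.00113). Dusp5, Spry1 and Spry4 also overlap annotated genes on the opposite strand, so reads in those overlaps cannot be assigned either.

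Dusp6 had 5211 and 4650 normalised reads in MTO54 and 3231 and 3090 in MTO220 with TGF-beta, against 2647 and 2600 in MTO54 and 2168 and 2552 in MTO220 in full medium. All 4 TGF-beta libraries were above all 4 in full medium (the difference between the lines in this response, MTO220 minus MTO54, was -0.48 ± 0.24, limma interaction adjusted p = 0.264). The log2 change was 0.67 ± 0.15 (limma, adjusted p = 0.00347). Dusp6 and Spred3 were the members with no overlap, both higher, where 20% of all genes tested had no overlap in that direction.

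Dusp4 had 4407 and 3927 normalised reads in MTO220 with TGF-beta against 1070 and 1392 in full medium, and 2377 and 1936 in MTO54 with TGF-beta against 1674 and 2897 in full medium. The MTO220 media were far apart (1.77 in MTO220 alone, limma adjusted p = 0.000253) and the MTO54 media overlapped. Over both lines the log2 change was 0.87 ± 0.34 (limma, adjusted p = 0.0512). It passed with DESeq2 (0.83, adjusted p = 0.0311), and with limma after scaling to library totals (0.99, adjusted p = 0.032) and without the pool 2 library of MTO54 with TGF-beta (1.11, adjusted p = 0.0207) or in full medium (1.20, adjusted p = 0.00581).

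The difference between the lines in this response was itself tested. The Dusp4 response was 1.81 ± 0.37 larger on the log2 scale in MTO220 than in MTO54 (limma interaction, adjusted p = 0.0144), the only member of 9 called, where 5.49% of 13725 genes were called higher and 8.2% in either direction. The call was lost without the pool 2 library of MTO54 with TGF-beta (1.66, adjusted p = 0.0642) and without the pool 1 libraries of MTO220 with TGF-beta (1.72, adjusted p = 0.069) or in full medium (1.62, adjusted p = 0.0501). The same differences for Spry4 and Spry1, 1.60 ± 0.55 and 0.90 ± 0.35, did not pass (adjusted p = 0.108 and 0.158), though Spry4 did with DESeq2 (1.69, adjusted p = 0.012). Both passed with limma without the pool 1 full-medium library of MTO54 (Spry4 2.29, adjusted p = 0.00746; Spry1 1.24, adjusted p = 0.0182), as did Dusp5 (1.25, adjusted p = 0.0366) and Spred3 (1.93, adjusted p = 0.0113).

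Dusp5 had 280.7 and 214.1 normalised reads in MTO54 and 408 and 390.5 in MTO220 with TGF-beta, against 199.9 and 346.4 in MTO54 and 204.6 and 274.4 in MTO220 in full medium. The media overlapped, and the log2 change was 0.32 ± 0.25 (limma, adjusted p = 0.296), or 0.57 without the pool 2 full-medium library of MTO54 (adjusted p = 0.0327). Spry4 had 2051 and 1651 in MTO54 and 1424 and 1403 in MTO220 with TGF-beta, against 1246 and 3234 in MTO54 and 382.8 and 670.6 in MTO220 in full medium. A full-medium library, MTO54 in pool 2, held the highest Spry4 value of all 16, and without it the change of 0.68 ± 0.37 (adjusted p = 0.151) became 1.11 (adjusted p = 0.00531). In MTO220 alone, Dusp5 (0.75, limma adjusted p = 0.0143), Spry4 (1.48, adjusted p = 0.00306) and Spry1 (0.58, adjusted p = 0.0227) were called higher with TGF-beta.

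Within pools, Spred3 changed by 4.27 in pool 1 and 3.10 in pool 2. Dusp6 changed by 0.78 in pool 1 (limma, adjusted p = 0.0436) and 0.56 in pool 2 (adjusted p = 0.215). With the pools averaged, Dusp6 also lost its call (0.67, limma adjusted p = 0.098). Dusp4 changed by 1.27 and 0.46, and Spry4 by 1.31 (adjusted p = 0.0365) and 0.05, in pool 1 and pool 2.

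The remaining 4 genes had small changes over both lines that did not pass with limma. Spry1 changed by 0.13 ± 0.23 (adjusted p = 0.644), Spred1 by -0.14 ± 0.17 (adjusted p = 0.501) and Spred2 by 0.08 ± 0.19 (adjusted p = 0.733). Spry2 changed by -0.36 ± 0.15 (adjusted p = 0.0681), and passed without the pool 1 full-medium library of MTO220 (-0.45, adjusted p = 0.043) and with DESeq2 (-0.37, adjusted p = 0.0495). With TGF-beta, Spred1 lay at 900 to 1923 and Spred2 at 778.8 to 1303, against 966.7 to 1691 and 757.5 to 1163 in full medium.

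**Figure D2:**
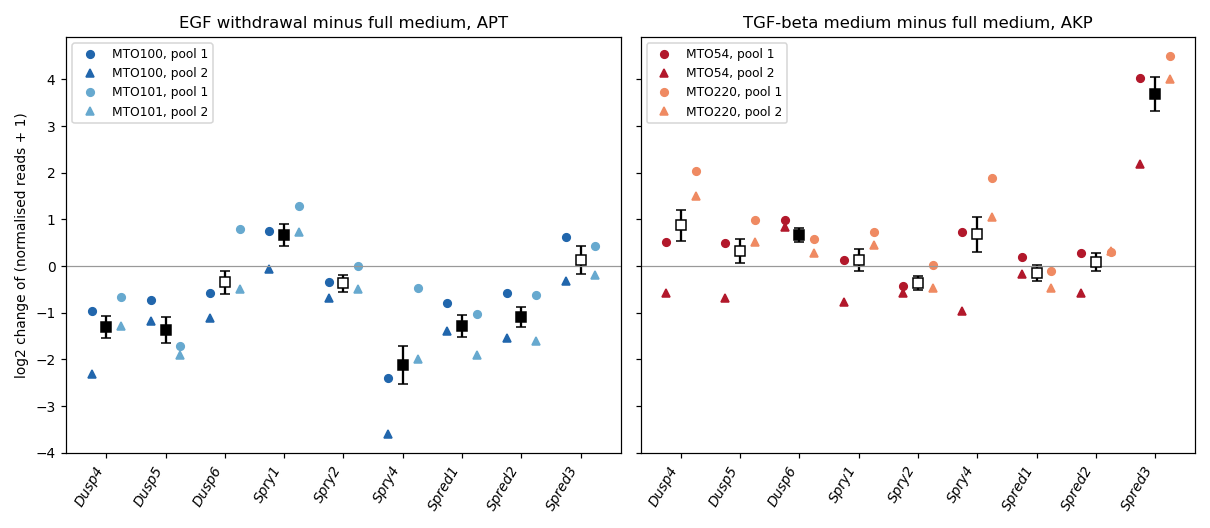
Log2 change of normalised reads + 1 for the 9 genes, EGF withdrawal minus full medium in APT (left) and TGF-beta medium minus full medium in AKP (right). Squares are limma estimates ± SE, filled where adjusted p is under 0.05, and coloured points are the 4 pairs of line and pool; Spred3 stands apart at 3.69 with TGF-beta, and Spry4 is lowest at -2.12 without EGF.

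The other genes of the pathway are given beside 27% of all genes called higher and 25.7% called lower with TGF-beta. Of 6 other MAP kinase phosphatases 5 rose and none fell, with Dusp16 at 0.93 ± 0.15 (adjusted p = 0.000665) and Dusp7, which acts on ERK, at 0.89 ± 0.15 (adjusted p = 0.000706). Of 12 other receptor and RAS inhibitors 5 rose and 2 fell. Il17rd, which restrains FGF signalling, rose by 1.81 ± 0.38 (adjusted p = 0.00283), though it did not pass in MTO54 alone (0.78, adjusted p = 0.0543). Lrig1, which lowers ERBB receptors, fell by 3.41 ± 0.17 on the log2 scale (adjusted p = 6.09e-07). Of 20 core genes 5 rose and 2 fell, shares no larger than among all genes. They included Egfr at 1.85 ± 0.28 (adjusted p = 0.000453) and the adaptor Gab1 at 1.04 ± 0.18 (adjusted p = 0.000821), while Erbb2 fell (-0.61 ± 0.14, adjusted p = 0.0053). Gab1 (0.73, limma adjusted p = 0.0529) and Erbb2 (-0.53, adjusted p = 0.133) did not pass in MTO54 alone. Of 16 outputs 6 rose and 1 fell. Plaur, the urokinase receptor, rose by 1.58 ± 0.21 (adjusted p = 0.000174) and Junb, an AP-1 subunit, by 1.73 ± 0.26 (adjusted p = 0.000418), and Etv4 did not pass (-0.19 ± 0.13, adjusted p = 0.249), all by limma. The 1 output called lower, Epha4 (-0.77, adjusted p = 0.0497), lost its call with edgeR (-0.77, adjusted p = 0.0527), library totals (-0.65, adjusted p = 0.101), a pseudocount of 0.5 (-0.77, adjusted p = 0.0505) and the pool as a block (-0.77, adjusted p = 0.0583). It also lost it without any of the 4 MTO54 libraries (-0.56 to -0.68, adjusted p = 0.129 to 0.141) or the pool 2 full-medium library of MTO220 (-0.80, adjusted p = 0.0879), and was -0.01 in MTO220 alone. Fgfr1 rose (2.33 ± 0.44, adjusted p = 0.00148) and Fgfr4 fell (-2.56 ± 0.35, adjusted p = 0.000239) among the FGF receptors. In pool 2 alone, Dusp16, Dusp7, Il17rd, Gab1, Erbb2 and Fgfr1 kept their direction but were not called (limma, adjusted p = 0.0634 to 0.18). Lrig1, Egfr, Plaur, Junb and Fgfr4 kept their calls there.

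The fibroblast markers summed to 110.2 to 202.4 normalised reads with TGF-beta against 10.3 to 18.9 in full medium, with Lum at 0 in all 4 libraries of both media and Thy1 at 0 in full medium, and Pdgfra and Col1a1 passed the test. The goblet markers summed to 161.5 to 230.9 with TGF-beta against 1475 to 20576 in full medium. The Paneth markers summed to 187.5 to 309.7 with TGF-beta, with Defa22 at 0, against 645.4 to 4813 in full medium, and 3 of 3 tested fell. The endothelial markers summed to 45.6 to 99.4 with TGF-beta against 186.2 to 1410 in full medium, and 1 of 2 tested, Vwf, fell. The sums of S phase and mitosis genes were 17358 to 34456 with TGF-beta against 56825 to 72084 in full medium, and 9 of 10 fell. Of the 7 epithelial markers, Epcam and Krt8 rose, Vil1 and Cdx2 fell and 3 were not called. The part of these cell states in the changes of Spred3 and Dusp6 was not tested.

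The TGF-beta response in AKP and the EGF withdrawal response in APT share no library, and their difference was tested in all 16. It was positive and called for 7 of the 9 members and negative and called for none, where 10.5% of 15087 genes were called higher, 11.7% lower and 22.2% in either direction. The differences were 3.55 ± 0.49 for Spred3 (limma, adjusted p = 0.000115), 2.79 ± 0.62 for Spry4 (adjusted p = 0.00442), 2.17 ± 0.45 for Dusp4 (adjusted p = 0.00282) and 1.70 ± 0.37 for Dusp5 (adjusted p = 0.00359). Those of Spred2 and Spred1 were 1.17 ± 0.29 (adjusted p = 0.00942) and 1.14 ± 0.29 (adjusted p = 0.0111). Spry1 (-0.54 ± 0.34, adjusted p = 0.289) and Spry2 (0.02 ± 0.22, adjusted p = 0.966) did not pass. Genotype, medium and line all differ between the responses and cannot be told apart here.

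For Dusp6 the difference was 1.02 ± 0.31 (limma, adjusted p = 0.0283). Its call was lost with library totals (0.91, adjusted p = 0.0727) and on leaving out any of 9 of the 16 libraries. In AKP these were MTO54 with TGF-beta in pool 1 (0.93, adjusted p = 0.0591) or pool 2 (1.00, adjusted p = 0.0508), and MTO54 in full medium in pool 1 (0.97, adjusted p = 0.0534). In APT they were both MTO100 libraries without EGF (pool 1, 0.98, adjusted p = 0.0534; pool 2, 0.85, adjusted p = 0.064) and both in full medium (pool 1, 0.96, adjusted p = 0.0568; pool 2, 0.87, adjusted p = 0.0599). The last were the pool 2 libraries of MTO101 without EGF (1.03, adjusted p = 0.0519) and in full medium (0.95, adjusted p = 0.055).

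In full medium the 9 inhibitors all had positive log2 differences of AKP minus APT line means with limma, but no gene of 13898 passed the test with 2 lines against 2. limma called 0 genes (0%; 1480, or 10.6%, had an unadjusted p under 0.05), edgeR 0 (1391 with an unadjusted p under 0.05), and DESeq2 740. By library, 4 members did not overlap between the 4 AKP and 4 APT libraries, Dusp5, Dusp6, Spred1 and Spred2, where 7.63% of all genes tested had no overlap with AKP higher. Dusp5 stood at 199.9 to 346.4 in AKP against 61.1 to 83.5 in APT, a log2 difference of 1.77 ± 0.31 (limma, adjusted p = 0.257). It was called with all 8 libraries and the line as a random effect (adjusted p = 0.0167), also with the pool as a block (adjusted p = 0.0202), and by DESeq2 (1.82, adjusted p = 0.00014).

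Dusp6 stood at 2168 to 2647 in AKP against 871.4 to 1889 in APT (1.11 ± 0.25, limma adjusted p = 0.313). Spred1 stood at 966.7 to 1691 in AKP against 528.4 to 883.2 in APT (1.02 ± 0.27, limma adjusted p = 0.357), and Spred2 at 757.5 to 1163 in AKP against 445.9 to 722.4 in APT (0.77 ± 0.24, adjusted p = 0.395). DESeq2 called Dusp6 (adjusted p = 0.0381) and Spred1 (adjusted p = 0.0401). The differences of Dusp4 (0.85 ± 0.38), Spry4 (1.47 ± 0.71), Spry2 (0.38 ± 0.26), Spred3 (0.13 ± 0.55) and Spry1 (0.03 ± 0.26) did not pass with limma (adjusted p = 0.521, 0.548, 0.646, 0.952 and 0.977). Spry1 turned slightly negative with edgeR (-0.02), DESeq2 (-0.01) and library totals (-0.03).

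**Figure D3:**
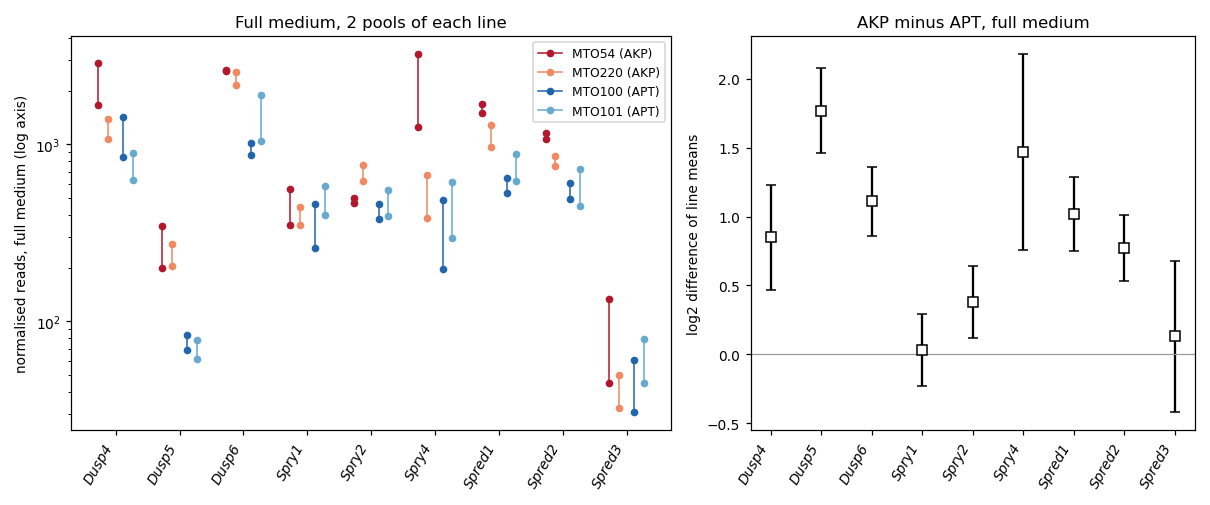
Left, normalised reads (log axis) of the 9 genes in full medium in the 2 pools of each line; right, the log2 difference of AKP minus APT line means ± limma SE, all not called. Dusp5 is apart between the genotypes, at 199.9 or more in AKP and 83.5 or less in APT.

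Between the AKP lines in full medium, Spry4 and Dusp4 were called. Spry4 had 382.8 and 670.6 normalised reads in MTO220 against 1246 and 3234 in MTO54, without overlap, a log2 difference of -1.98 ± 0.39 (limma, adjusted p = 0.00503) where 9.17% of 13725 genes were called lower and 17.8% in either direction. The Spry4 call was lost without the pool 1 full-medium library of MTO220 (-1.58, adjusted p = 0.0533). Dusp4 had 1070 and 1392 in MTO220 against 1674 and 2897 in MTO54, without overlap (-0.85 ± 0.26, adjusted p = 0.0449). The Dusp4 call was lost without any of the 4 TGF-beta libraries (-0.85 each, adjusted p = 0.0608 to 0.0709), without the full-medium library of MTO54 in pool 2 (-0.46, adjusted p = 0.194) or of MTO220 in pool 1 (-0.66, adjusted p = 0.237) or pool 2 (-1.04, adjusted p = 0.0541), and with library totals (-0.83, adjusted p = 0.0716). The other 7 did not pass with limma, though Spred3 (-0.94 ± 0.43, adjusted p = 0.166) did with DESeq2 (-1.12, adjusted p = 0.0311) and without the pool 1 full-medium library of MTO54 (-1.72, adjusted p = 0.00389).

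In APT, no member was called between MTO101 and MTO100 in full medium with limma, where 14.1% of 14373 genes were, and none in the EGF withdrawal response of the 2 lines, where 2.34% were. In the response, Spry4 was 1.75 ± 0.62 higher in MTO101 than in MTO100 (limma, unadjusted p = 0.0171, adjusted p = 0.202) and Dusp6 1.01 ± 0.41 higher (unadjusted p = 0.0335, adjusted p = 0.282). Both passed without the pool 2 full-medium library of MTO101 (Spry4 2.28, adjusted p = 0.0385; Dusp6 1.43, adjusted p = 0.0278). Without the pool 1 library, Dusp6 in full medium was higher in MTO101 than in MTO100 (1.01, adjusted p = 0.0203).

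Across the 16 libraries, which share lines, pools and media, the closest pairs lay among 6 of the 9 genes. Pearson r of log2(normalised reads + 1), given as a description over 16 libraries that are not independent, was 0.96 for Spred1 with Spred2, 0.93 for Dusp4 with Dusp5 and 0.93 for Dusp5 with Spred2. Among Dusp4, Dusp5, Dusp6, Spry4, Spred1 and Spred2 it ran from 0.72 to 0.96. Spry1 ran from -0.45 (with Spred1) to 0.13 (with Spry2). Spred3 reached 0.71 with Dusp4 and 0.70 with Dusp6, next to that lowest value of 0.72 (Dusp5 with Dusp6), and stood at 0.07 with Spry2.

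**Figure D4:**
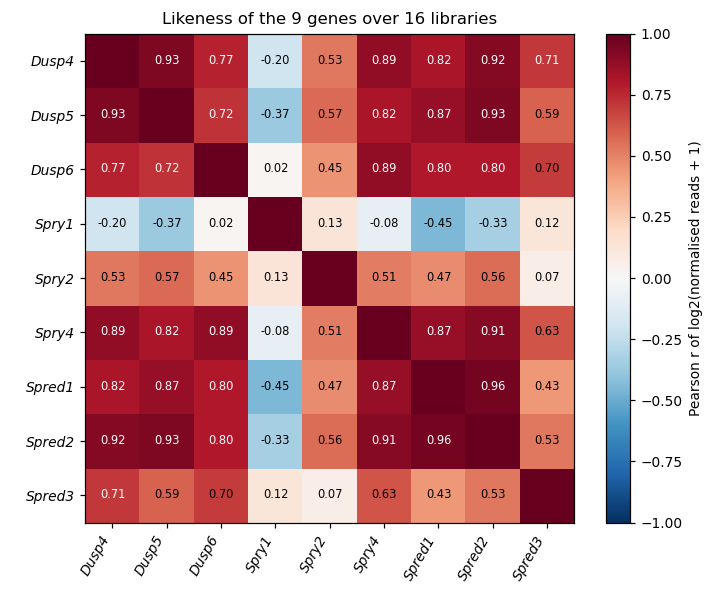
Pearson r between the 9 genes over the 16 libraries, on log2(normalised reads + 1), with red positive and blue negative. Dusp4, Dusp5, Dusp6, Spry4, Spred1 and Spred2 form a red block (0.72 to 0.96), and Spry1 is near 0 or negative with all of them.

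Among 10608 other genes with a symbol and a mean of 100 or more, the ones most like each member were named by the same r over the 16 libraries. Dusp5 was followed most closely by Steap2 (0.982), Tnfrsf10b (0.981) and Tgfb1 (0.966), and Spred3 by Acvr1 (0.972), Dcbld2 (0.969) and Skil (0.962). Dusp6 was followed by Epb41l2 (0.959), Dusp4 by Ehbp1l1 (0.958), Spred1 by Pacsin2 (0.958) and Spred2 by Eogt (0.957). The closest to Spry4 was Lmo2 (0.936), to Spry1 Zhx2 (0.929) and to Spry2 Hmgxb3 (0.891). The ranking is a description of 16 libraries that fall into a few groups.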

How the data were processed

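RNA of 16 libraries was measured by poly(A) sequencing. Per the labels' protocols, the library kit kept no strand information, and libraries were amplified with 9 to 10 PCR cycles and without molecular identifiers. Per the submitters' processing notes, STAR 2.3.0e, DESeq2 1.22.1 and mm10 were used, with no roles given. The authors deposited 1 table of signal values, counts divided by a size factor (0.868 to 1.16). All values were whole multiples of a step within 0.001 (largest deviation 5.89e-05), so the reads were recovered for depth, edgeR and DESeq2. Symbols (25275 IDs, 93.0%) came from RefSeq GRCm38.p6 and exon lengths from GENCODE M21.

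Comparisons used limma 3.58.1 (limma-trend, robust) on log2(value + 1), keeping genes with 10 or more normalised reads in 4 or more libraries (2 in fits of 4 values), the line as a term and Benjamini-Hochberg adjusted p under 0.05 over all genes as a call; all tests were two-sided, in R 4.3.3. AKP and APT were compared on line means. Alternatives were edgeR 4.0.16, DESeq2 1.42.0, library totals, pseudocounts of 0.5 and 5, no filter, single lines or pools, blocks and leaving out each library. Members and lists were chosen with earlier results of these data known; all members and up to 4 called genes per other list, direction and comparison with the smallest p were eligible to be named, of which the text gives some, and 1 eligible gene is not reported here.

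Libraries of a line with the same pool number share a passage by the labels, so the number was taken as pairing. Deviations of pool 2 from pool 1 correlated between the media of a line at 0.0385 (MTO54), 0.171 (MTO220), 0.174 (MTO100) and 0.127 (MTO101) over 15087 genes. Between groups of different lines they ran from -0.344 (MTO54 with TGF-beta and MTO101 in full medium) to 0.526 (MTO220 and MTO101 in full medium). The media of a line were thus not set apart from groups of different lines, and the pairing rests on the labels alone.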

Additional observations from a re-analysis of the deposited data

Results flagged for a closer look

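The TGF-beta response of Dusp4 differed between the AKP lines: it was 1.81 larger on the log2 scale in MTO220 than in MTO54 (limma interaction, adjusted p = 0.0144), with 4407 and 3927 normalised reads with TGF-beta against 1070 and 1392 in full medium in MTO220, and 2377 and 1936 with TGF-beta against 1674 and 2897 in full medium in MTO54. Groups of 2 libraries are too small to look for a single library far from the others.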

How the results depend on the processing

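Of 1278 alternative values for the 9 genes over 8 comparisons, 1154 kept their direction and side of the threshold, 38 lost a call, 32 gained one and 54 changed sign; all 54 changed from values that were not called. For 45 results of other named genes, some of them named in both media, 832 of 965 kept theirs and 133 lost the call. With the replicate block, Epha4 with TGF-beta lost its call (-0.77). Dusp5 between AKP and APT in full medium was called with the pool (1.77, limma adjusted p = 0.0202), in a fit of 8 libraries with a random line. That fit also called Dusp5 without the pool (adjusted p = 0.0167), so the pool did not bring this call. No other call changed among 117 named results.

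Scaling to library totals moved the median change of all genes to 0.31 without EGF and to 0.14 with TGF-beta, against 0.08 and 0.02. Genes called without EGF (6969) were 2961 in pool 2 alone, 4245 with pools averaged and 4156 without both pool 2 libraries lacking EGF. Genes called with TGF-beta (7226) were 3782 in MTO54 alone, 3876 in pool 1, 1994 in pool 2 and 2314 with pools averaged, and 8942 in MTO220 alone. Between AKP and APT DESeq2 called 740 genes, the 8 libraries with a random line 575, and the pool block 359. For the EGF withdrawal response between the lines DESeq2 called 640 of 14373 genes, against 337 with limma. Leaving out 1 library gave 80 to 982 there, 343 to 2384 for the TGF-beta response between lines (1126), 1331 to 2672 for MTO101 against MTO100 (2031) and 1375 to 3077 for MTO220 against MTO54 (2449); the cause was not tested.

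Changes of sign, in log2, came without EGF for Dusp6 (0.15 in MTO101 alone, 0.11 in pool 1 alone) and Spred3 (-0.25 in pool 2 alone). With TGF-beta, MTO54 alone gave -0.04 for Dusp4, -0.10 for Dusp5, 0.00 for Spred1, -0.15 for Spred2, -0.31 for Spry1 and -0.13 for Spry4. Pool 2 alone gave -0.09 for Dusp5, -0.13 for Spred2 and -0.16 for Spry1, and pool 1 alone 0.04 for Spred1. Library totals gave -0.09 for Spry2 in the difference of the responses. Spry1 between AKP and APT was -0.02 with edgeR, -0.01 with DESeq2 and -0.03 with library totals.

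Leaving out 1 library gave -0.06 to 0.32 for Spred3 without EGF; -0.02 to 0.28 for Spred2 and -0.02 to 0.36 for Spry1 with TGF-beta; and -0.07 to 0.14 for Spry2 in the difference of the responses. Between AKP and APT it gave -0.26 to 0.52 for Spred3 and -0.17 to 0.24 for Spry1. For the EGF withdrawal response between the lines it gave -0.80 to 0.07 for Spred1, -0.40 to 0.29 for Spred2 and -0.53 to 0.43 for Spred3. For MTO101 against MTO100 it gave -0.31 to 0.04 for Dusp5, -0.29 to 0.40 for Spred2, -0.02 to 0.93 for Spred3, -0.09 to 0.41 for Spry2 and -0.19 to 1.11 for Spry4. For MTO220 against MTO54 it gave -0.55 to 0.24 for Dusp5 and -0.52 to 0.17 for Spry1.

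With 2 libraries per group and 2 lines per genotype, differences near 0 could not be given a direction. Spred3 and Dusp5 rest on the fewest reads of the 9 in full medium. Without EGF, the decreases of Dusp5 and Spry4 also rest on few reads. Dusp5 had 17 and 22 reads in MTO101, and Spry4 39 and 45 reads in MTO100.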
